A study of Homo sapiens with 6 samples.

Results

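The 39 HOX genes of the 4 human clusters were followed in RNA-seq of UWB1.289 cells, an established ovarian carcinoma line that lacks functional BRCA1. Members were all genes whose symbol is HOXA, HOXB, HOXC or HOXD followed by a number, which gave 39 of the 27001 named genes in the deposited table. They comprised 11 HOXA genes on chromosome 7, 10 HOXB genes on chromosome 17, 9 HOXC genes on chromosome 12 and 9 HOXD genes on chromosome 2. The rule used symbols and no measured value. The study compared 3 libraries of cells that carried a lentiviral short hairpin RNA against HBO1 (shHBO1) with 3 libraries of cells that carried a control hairpin (shCTRL). The target HBO1, a histone acetyltransferase, is the product of KAT7 (older name MYST2). Both groups were plated in 24-well plates, received polybrene at 10 µg/mL during transduction and were selected from 96 h on with puromycin at 1 to 3 µg/mL. The sources used here do not give the number of hairpins, or say whether replicates 1 to 3 of each group were separate cultures. The p-values below therefore rest on the spread between libraries alone, and that spread may be technical.

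HOX genes encode homeodomain transcription factors that give cells their position along the body axis. Within a cluster the genes lie in numbered order, from the anterior, or low-numbered, end to the posterior, or high-numbered, end, and genes of the same number in different clusters are paralogs. In the female reproductive tract, genes of paralog groups 9 to 13 of the HOXA cluster are known for laying out the fallopian tube, uterus, cervix and vagina. Trithorax-type complexes with KMT2A and menin keep HOX genes active and Polycomb complexes keep them silent. HBO1 acetylates histones H3 and H4, and in leukaemias with KMT2A fusions it is known to sustain HOXA9 and HOXA10.

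KAT7 checked the labels. It had 1008, 872 and 784 normalized counts in shHBO1 replicates 1, 2 and 3, against 3616, 3952 and 3554 in shCTRL replicates 1, 2 and 3. The groups did not overlap, and the shHBO1 mean was 23.9% of the shCTRL mean (limma log2 fold change −2.07, SE 0.11, Benjamini-Hochberg adjusted p = 0.00123). The libraries held 35940400 to 39908703 recovered reads, and 17664 to 18015 named genes had a read in a library. The summed level of 6 epithelial markers (EPCAM, KRT8, KRT18, KRT7, CDH1 and KRT19) ran from 316915 to 373293 normalized counts in shHBO1 and from 336577 to 391098 in shCTRL. The Mullerian factor PAX8 averaged 9712 ± 1607 in shHBO1 and 10220 ± 1625 in shCTRL (SD, n = 3 each), while WT1, which marks serous ovarian carcinoma, averaged 14.1 ± 6.53 and 13.4 ± 13.1. Over the 6 serous and Mullerian markers 5 estimates were below 0, with a median of −0.31, and 0 passed in limma. Among them MSLN averaged 1727 ± 292 and 2262 ± 569, and MUC16 averaged 744 ± 307 and 972 ± 390. Of 6 fibroblast markers DCN and PDGFRA were at 0 in all libraries, and LUM and PDGFRB had under 10 normalized counts, while COL1A1 averaged 813 ± 78.7 in shHBO1 and 688 ± 172 in shCTRL, and THY1 440 ± 26.6 and 469 ± 32.9. Among the leukocyte markers TYROBP was at 0 in all libraries, and CD3E was under 10. The leukocyte markers CD68 (526 ± 93.5 in shHBO1 and 496 ± 60.5 in shCTRL) and PTPRC (29.5 ± 18.7 and 35.2 ± 17.9) overlapped between groups. CD14 did not (18.6 ± 5.21 and 38.9 ± 0.618), as was so for 8.93% of all genes tested. The part of these markers in the HOX values was not tested. Of 4 endothelial markers 2 estimates were below 0 and 2 above. The cadherin CDH5 averaged 743 ± 98.9 in shHBO1 and 1032 ± 199 in shCTRL, and VWF 21.3 ± 3.56 and 23.8 ± 6.19. PECAM1 averaged 48.7 ± 7.66 in shHBO1 and 41.8 ± 6.20 in shCTRL, and KDR 36.8 ± 7.56 and 23.2 ± 12.9. In bulk RNA, fewer cells of a type and less RNA per cell cannot be told apart.

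The homeobox, the stretch that encodes the DNA-binding homeodomain, shows how far reads of paralogs can be told apart. It is printed for 3 genes of paralog group 9, because HOXB9 had the smallest unadjusted p of all HOX genes. The sequences are the coding strand of GENCODE release 29 transcripts, 180 bases each, 5′ to 3′, and capitals mark the bases that differ from HOXB9.
HOXB9: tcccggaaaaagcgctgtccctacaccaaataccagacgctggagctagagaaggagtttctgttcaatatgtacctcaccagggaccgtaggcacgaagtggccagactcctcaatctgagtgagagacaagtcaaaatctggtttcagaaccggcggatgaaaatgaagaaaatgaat
HOXC9: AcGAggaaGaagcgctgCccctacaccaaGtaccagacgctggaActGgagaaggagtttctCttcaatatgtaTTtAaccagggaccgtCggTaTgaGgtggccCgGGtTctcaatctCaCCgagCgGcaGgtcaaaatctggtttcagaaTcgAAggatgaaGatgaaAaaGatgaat
HOXD9: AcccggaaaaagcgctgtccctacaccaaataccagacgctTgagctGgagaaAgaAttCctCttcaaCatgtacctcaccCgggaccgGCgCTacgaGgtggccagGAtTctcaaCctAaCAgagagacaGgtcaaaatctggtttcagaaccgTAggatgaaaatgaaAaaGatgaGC

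HOXC9 differed from HOXB9 at 32 bases (82.2% identity) and HOXD9 at 28 (84.4%). The longest run of bases shared by HOXB9 and HOXD9 was 40. Over all 42 paralog pairs the homeobox identity ran from 69.4% to 90.6%, and the longest run shared by 2 whole transcripts ran from 12 to 62 bases, the longest between HOXB3 and HOXD3. A read longer than such a run carries at least 1 base that differs. The sources used here give neither the read length nor the treatment of reads with several matches. Inside the HOXC cluster the overlap was larger: transcripts of HOXC4 and HOXC6 shared a run of 484 bases, and HOXC5 shared 305 bases with each of them. Values of these 3 genes are therefore uncertain as separate values.

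UWB1.289 cells had transcripts from all 4 clusters. Of the 39 HOX genes, 37 had at least 1 read in at least 1 library, and HOXB1 and HOXC12 had 0 reads in all 6 libraries, where a count of 0 allows up to 3 reads per library. A mean of at least 10 normalized counts over the 6 libraries, the limit for testing, was reached by 30 genes: 11 of 11 in HOXA, 7 of 10 in HOXB, 4 of 9 in HOXC and 8 of 9 in HOXD. The other 9 were HOXB1, HOXB5, HOXB8, HOXC8, HOXC9, HOXC10, HOXC11, HOXC12 and HOXD12. These 9 had at most 9 reads in any library.

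To compare genes, levels of the 30 tested genes were divided by transcript length, and are given as normalized counts per kb. HOXB7, which takes part in patterning the thoracic skeleton in mouse, was the highest, at 584 ± 38.4 per kb in shHBO1 and 550 ± 32.7 in shCTRL. In shCTRL its 3 libraries lay above all libraries of the next gene. Next in order in shCTRL came HOXA10, HOXA7, HOXD4, HOXD8, HOXD9, HOXD11 and HOXA4, from 434 ± 59.9 down to 184 ± 23.6 per kb, each overlapping its neighbour. The same 8 genes ran from 584 ± 38.4 to 176 ± 9.44 per kb in shHBO1. A gap without overlap separated HOXA4 from HOXC4, at 112 ± 24.8 per kb in shCTRL. From HOXC4 down to HOXB6, at 10.7 ± 4.47, each gene again overlapped the next. HOXB13, HOXC13 and HOXA13, the posterior ends of their clusters, closed the order of the tested genes at 4.69 ± 1.02, 3.88 ± 1.51 and 1.94 ± 1.13 per kb in shCTRL. They had 3.91 ± 2.88, 4.45 ± 2.66 and 2.63 ± 0.738 per kb in shHBO1. Of the summed per-kb level of all HOX genes, HOXA held 36.3 ± 1.33% in shHBO1 and 37.7 ± 2.54% in shCTRL, and HOXD held 35.1 ± 3.07% and 35.2 ± 4.0%. HOXB held 23.1 ± 1.22% and 22.2 ± 1.05%, and HOXC 5.54 ± 0.552% and 4.95 ± 0.975%.

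**Figure D1:**
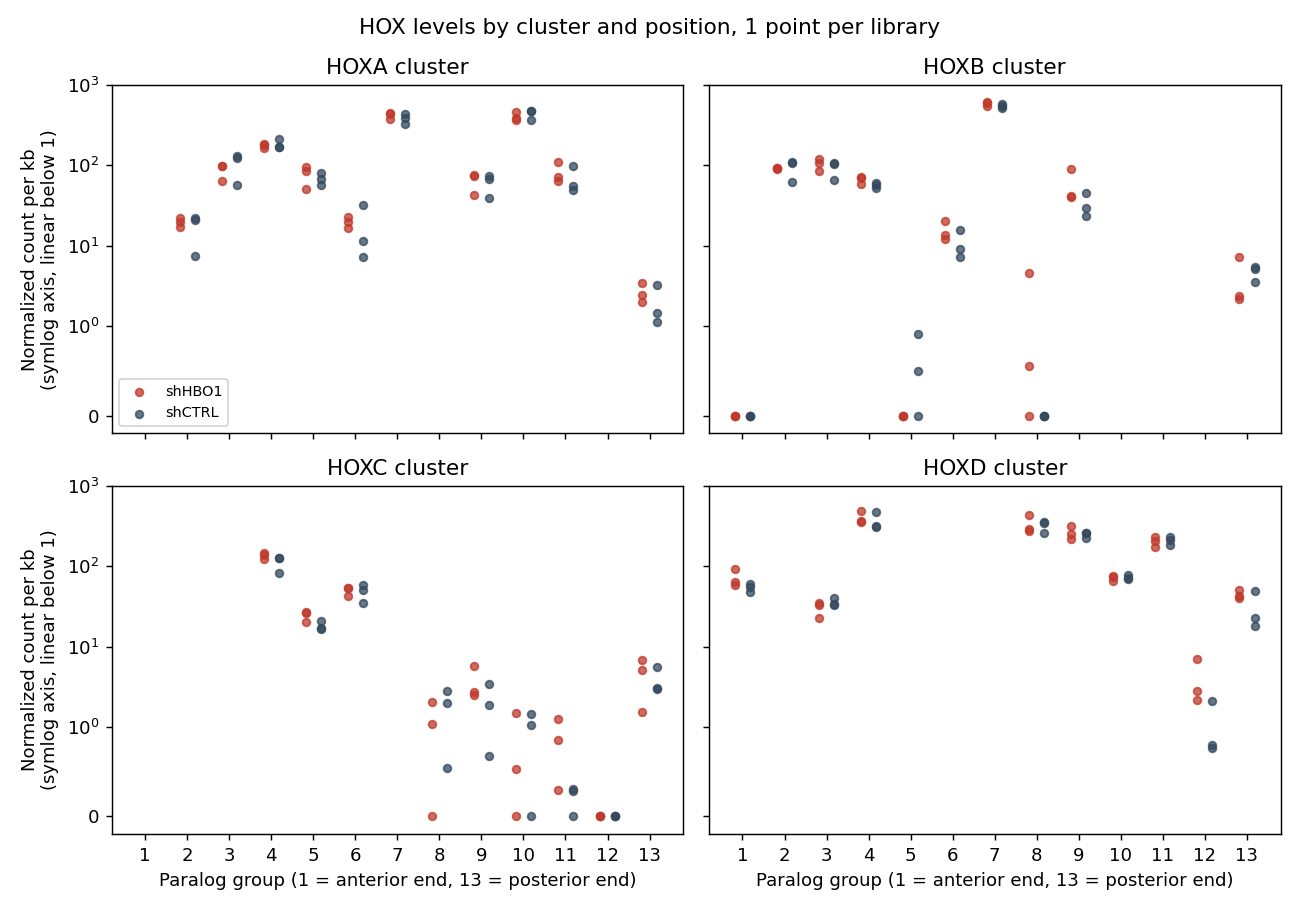
Normalized count per kb of transcript (symlog axis, linear below 1) for 38 of the 39 HOX genes by paralog group, 1 panel per cluster and 1 point per library, shHBO1 left of shCTRL. HOXB7 stands highest at 584 per kb in shHBO1 and 550 in shCTRL, HOXC8 to HOXC12 stay near 0, and HOXD12 sits far below its neighbour HOXD11.

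The position in a cluster did not set the level by a simple gradient. In HOXB the high gene HOXB7 lay between HOXB6, at 15.4 ± 4.35 per kb in shHBO1 and 10.7 ± 4.47 in shCTRL, and HOXB8, at 1.72 ± 2.52 and 0. In HOXC the transcripts came from the anterior end: HOXC4 had 136 ± 12.2 per kb in shHBO1 and 112 ± 24.8 in shCTRL, and HOXC8 to HOXC12 had at most 9 reads in any library. In HOXD the sharpest step was between neighbours near the posterior end. HOXD11, which shapes the forearm together with HOXA11 in mouse, had 204 ± 31.6 per kb in shHBO1 and 209 ± 25.4 in shCTRL. HOXD12 had 4.0 ± 2.58 and 1.23 ± 0.779 per kb, and HOXD13, a gene of digit formation, had 44.2 ± 5.86 and 29.8 ± 16.5.

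The promoters of this step are shown because the neighbours lie so close and differ so far in level. Each is 300 bases from RefSeq, build GRCh38.p14, from 250 before to 50 after the gene's start, on the plus strand and 5′ to 3′, with CG pairs in capitals. HOXD11 lies at chr2:176107030-176107329 and HOXD12 at chr2:176099545-176099844.
HOXD11: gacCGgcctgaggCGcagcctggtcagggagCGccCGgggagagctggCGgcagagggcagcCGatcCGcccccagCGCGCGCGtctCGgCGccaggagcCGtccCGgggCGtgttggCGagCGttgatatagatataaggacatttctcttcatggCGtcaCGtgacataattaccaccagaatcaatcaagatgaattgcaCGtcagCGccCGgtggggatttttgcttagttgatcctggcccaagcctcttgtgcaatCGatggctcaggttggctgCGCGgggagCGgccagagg
HOXD12: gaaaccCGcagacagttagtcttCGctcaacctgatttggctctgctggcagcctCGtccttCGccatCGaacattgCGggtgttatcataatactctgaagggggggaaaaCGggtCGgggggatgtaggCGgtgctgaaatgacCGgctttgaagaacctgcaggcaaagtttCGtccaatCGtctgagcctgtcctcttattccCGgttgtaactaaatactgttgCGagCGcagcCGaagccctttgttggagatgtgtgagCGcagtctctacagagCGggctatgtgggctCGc

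The HOXD11 window held 27 CG pairs and the HOXD12 window 19. RefSeq promoters were at hand for 20 HOX genes, with a median of 22.5 CG pairs and a range of 4 to 44, against a median of 14 over 27305 promoters of all genes. CG pairs did not order the levels: HOXD4 had 4 in its window and was among the 8 highest genes per kb, while HOXA13 had 44 and was the lowest of the 30 tested. The motif TATAAA, searched on both strands, was in 4 of the 20 HOX windows (20.0%; HOXA3, HOXA9, HOXA10 and HOXD13) and in 12% of all windows. The motif TGATNNAT, close to the joint site of HOX and PBX proteins, was in 3 (15.0%; HOXA2, HOXB1 and HOXD11) and in 7.60% of all windows, on both strands and counted apart from any overlap with TATAAA. A match is a description of these letters and not a bound site. HOXC4 and HOXC5 have the same window in this table.

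The question of the design was whether HOX transcripts differ in shHBO1 from shCTRL. None of the 30 tested HOX genes passed an adjusted p of 0.05 in limma on log2(normalized count + 1), Benjamini-Hochberg over all 15184 genes, where 0.00659% of all genes did (KAT7). At an unadjusted p under 0.05 the HOX count was 0 of 30, against 3.54% of all genes. Without shCTRL replicate 3 it was 5 of 30 (HOXA3, HOXA6, HOXA11, HOXB9 and HOXD13), against 15.0% of all genes, and without the pair numbered 3 it was 4 of 30 (the same genes but HOXA11), against 14.3%. On the recovered reads edgeR called 0 HOX genes (0.00659% of all genes), with 0 at an unadjusted p under 0.05 against 3.64% of all genes. DESeq2 called 0 of the 23 with an adjusted p (0.145% of all genes), with 1 of 30 at an unadjusted p under 0.05, HOXB9, against 3.69%. The smallest limma adjusted p of a HOX gene was 1.00. The median log2 fold change of the 30 was 0.14, against 0.00011 over all genes tested, and the estimates ran from −0.43 for HOXB13 to 0.75 for HOXB9. For 20 of the 30 the 95% confidence interval lay within a 2-fold change either way, and these 20 had means of at least 75.4 normalized counts. For the other 10 a 2-fold difference was not excluded: HOXA2, HOXA6, HOXA11, HOXA13, HOXB6, HOXB9, HOXB13, HOXC5, HOXC13 and HOXD13. With the replicate number as a block the interval lay within 2-fold for 21, HOXA11 being the additional gene (−0.034 to 0.64), and the intervals of HOXB9 (0.34 to 1.15) and HOXD13 (0.12 to 1.26) lay above 0 before any adjustment.

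**Figure D2:**
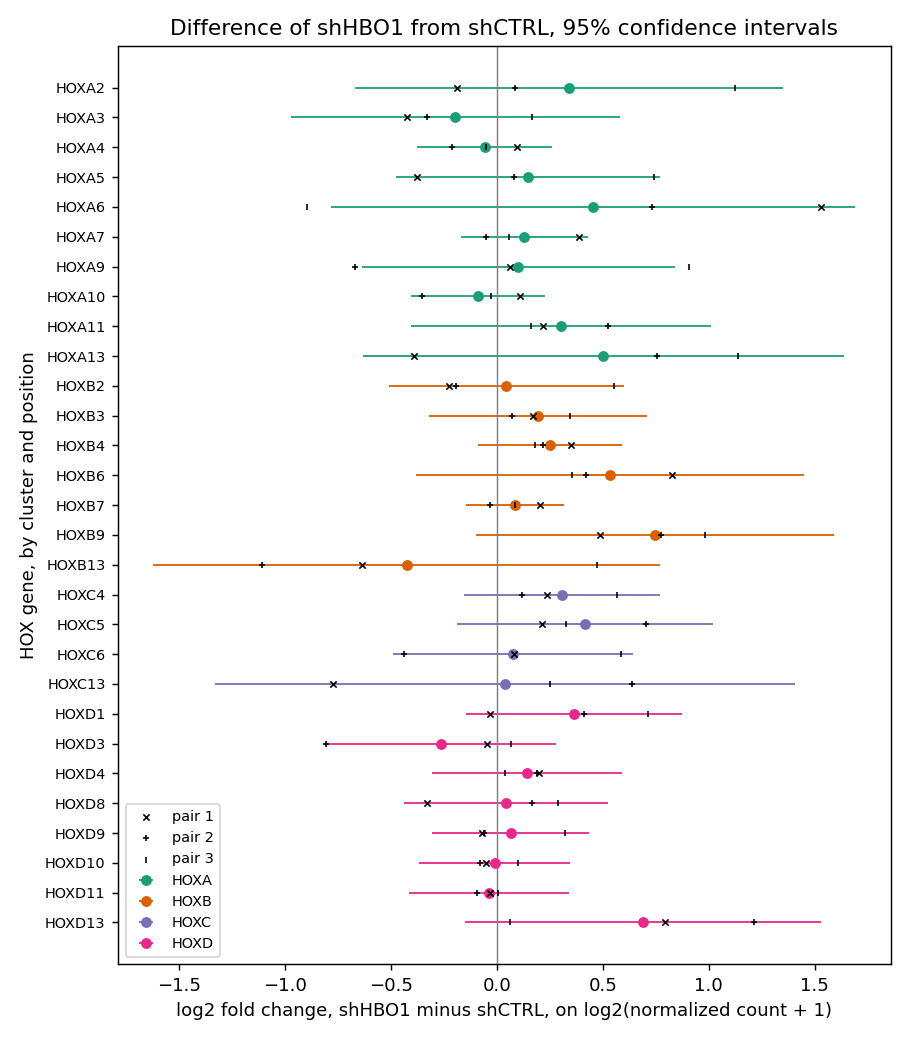
Log2 fold change of shHBO1 minus shCTRL on the log2(normalized count + 1) scale for 29 of the 30 tested HOX genes (circles, coloured by cluster) with 95% confidence intervals from limma, and the differences within numbered pairs 1, 2 and 3 (small marks). Every interval drawn, from the fit without the block, includes 0, and 22 of the 29 circles lie above 0.

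Although none passed, 23 of the 30 estimates were above 0, as were 7597 of all 15184 genes tested. In 10 of the 30 all 3 numbered pairs were higher in shHBO1, against 15.3% of all genes, and in 0 of the 30 all 3 pairs were lower, against 17.1%. This lean was largest in the pair numbered 3. The median HOX log2 difference was 0.086, 0.081 and 0.31 in pairs 1, 2 and 3, against 0.0062, 0.00092 and −0.0097 over all genes tested. Without pair 3 the median HOX estimate was 0.015, with 15 estimates above and 15 below 0. Without shHBO1 replicate 3 alone, 19 estimates were above 0 and 11 below, and the same counts held without shCTRL replicate 3 alone. By cluster, the median was 0.15 in HOXA (8 of 11 above 0), 0.20 in HOXB (6 of 7), 0.19 in HOXC (4 of 4) and 0.053 in HOXD (5 of 8). By position it was 0.20 in paralog groups 1 to 3, 0.14 in groups 4 to 8 and 0.064 in groups 9 to 13. Only 1 of the 30 genes (3.33%) had shHBO1 and shCTRL libraries that did not overlap, against 8.93% of all genes.

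The 4 genes with the smallest unadjusted p were HOXB9, HOXD13, HOXB4 and HOXD1, all with estimates above 0. HOXB9, a posterior gene linked to invasion when overexpressed in breast carcinoma, had 108, 105 and 231 normalized counts in shHBO1 replicates 1, 2 and 3, against 77.2, 60.9 and 116 in shCTRL replicates 1, 2 and 3. The lowest shHBO1 library was below the highest shCTRL library, so the groups overlapped, and replicate 3 was the highest of each group. The estimated log2 fold change of 0.75 had an SE of 0.37 and a 95% confidence interval of −0.10 to 1.59 (limma unadjusted p = 0.076). It was 0.38 without shHBO1 replicate 3 and 1.00 without shCTRL replicate 3. HOXD13 had 88.8, 94.7 and 114 in shHBO1 and 50.8, 40.3 and 109 in shCTRL. Only shCTRL replicate 3 reached the shHBO1 range. Here the log2 fold change of 0.69 had an SE of 0.36 and an interval of −0.15 to 1.53 (limma unadjusted p = 0.095). It was 0.40 without shCTRL replicate 2 and 1.11 without shCTRL replicate 3.

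HOXB4, known for expanding blood stem cells when overexpressed, had 272, 264 and 221 in shHBO1 and 213, 227 and 195 in shCTRL. The lowest shHBO1 library lay just below the highest shCTRL library. Its log2 fold change was 0.25 (SE 0.15, limma unadjusted p = 0.130). HOXD1, at the anterior end of its cluster, had 114, 126 and 181 in shHBO1 and 117, 94.6 and 110 in shCTRL. The groups overlapped, and shHBO1 replicate 3 stood above the others. Its log2 fold change was 0.36 (SE 0.22, limma unadjusted p = 0.138), and 0.17 without shHBO1 replicate 3.

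Among the most abundant HOXA genes, HOXA10, which is needed for the uterus to receive an embryo, had 857, 799 and 1001 normalized counts in shHBO1 and 795, 1021 and 1021 in shCTRL. HOXA7 had 868, 759 and 904 in shHBO1 and 664, 788 and 869 in shCTRL. HOXA3, needed for the thymus and parathyroid in mouse, had 324, 324 and 210 in shHBO1 and 436, 407 and 188 in shCTRL. All 3 genes overlapped between groups, and HOXA3 was lowest in replicate 3 of each group. Their log2 fold changes were −0.092 (SE 0.14), 0.13 (SE 0.13) and −0.20 (SE 0.34). HOXA9, which drives many acute leukaemias, averaged 133 ± 38.5 in shHBO1 and 124 ± 38.2 in shCTRL. HOXA11, a gene of the uterus and forearm, averaged 188 ± 55.3 and 155 ± 60.3. The remaining HOXA genes were as mixed between groups. HOXA4 averaged 304 ± 16.3 in shHBO1 and 318 ± 40.8 in shCTRL, and HOXA5, a gene of lung formation in mouse, averaged 128 ± 38.2 and 113 ± 19.4. HOXA2, HOXA6 and HOXA13 had low counts, between 10.2 and 40.7 in the shHBO1 libraries and between 5.62 and 40.6 in the shCTRL libraries.

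In the HOXB cluster HOXB7 had 813, 742 and 845 normalized counts in shHBO1 and 707, 760 and 796 in shCTRL. HOXB3, an anterior gene of the hindbrain and neck, had 316, 286 and 224 in shHBO1 and 280, 273 and 176 in shCTRL. Both overlapped, with log2 fold changes of 0.084 (SE 0.099) and 0.20 (SE 0.22). HOXB3 was higher in shHBO1 in each of the 3 pairs. HOXB13, the prostate gene of the cluster, averaged 13.6 ± 9.98 in shHBO1 and 16.2 ± 3.55 in shCTRL. HOXB2 averaged 144 ± 2.01 and 144 ± 41.5, with shCTRL replicate 3 as the lowest library. HOXB6, beside HOXB7, averaged 25.5 ± 7.22 in shHBO1 and 17.8 ± 7.43 in shCTRL. HOXB8 had 9, 1 and 0 reads in shHBO1 and 0 reads in each shCTRL library, and HOXB5 had 0 reads in each shHBO1 library and 1, 2 and 0 in shCTRL.

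In the HOXC cluster HOXC4 had 246, 230 and 206 normalized counts in shHBO1 and 208, 212 and 138 in shCTRL. HOXC6 had 93.4, 74.3 and 91.7 in shHBO1 and 88.4, 101 and 60.8 in shCTRL. HOXC5 had 35.5, 47.9 and 46.3 in shHBO1 and 30.5, 29 and 36.7 in shCTRL. For HOXC4 and HOXC5, 1 shHBO1 library lay within the shCTRL range, and HOXC6 was mixed throughout. Their log2 fold changes were 0.31 (SE 0.20) for HOXC4, 0.075 (SE 0.25) for HOXC6 and 0.41 (SE 0.26) for HOXC5. Without shCTRL replicate 3 that of HOXC4 was 0.11. HOXC13, a gene of hair and nail, averaged 10.8 ± 6.45 in shHBO1 and 9.41 ± 3.66 in shCTRL.

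In the HOXD cluster HOXD4 had 528, 519 and 701 normalized counts in shHBO1 and 460, 455 and 682 in shCTRL. HOXD8 had 424, 445 and 671 in shHBO1 and 533, 397 and 548 in shCTRL. HOXD9 had 466, 405 and 596 in shHBO1 and 490, 422 and 477 in shCTRL. All 3 overlapped between groups, and shHBO1 replicate 3 was the highest library of each. Their log2 fold changes were 0.14 (SE 0.19), 0.041 (SE 0.21) and 0.064 (SE 0.16). HOXD11 had 318, 262 and 358 in shHBO1 and 325, 279 and 357 in shCTRL, close to identical within each pair. HOXD10 was as steady, at 143 ± 11.1 in shHBO1 and 144 ± 7.60 in shCTRL. HOXD3, with the lowest estimate of its cluster (−0.26, SE 0.23), averaged 68.9 ± 14.8 in shHBO1 and 81.8 ± 8.72 in shCTRL. HOXD12 had 4, 9 and 3 reads in shHBO1 and 1, 3 and 1 in shCTRL, too few for a test.

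Summed over a cluster, HOXB had 1693, 1571 and 1722 normalized counts in shHBO1 and 1474, 1522 and 1424 in shCTRL. HOXC had 385, 376 and 376 in shHBO1 and 339, 360 and 260 in shCTRL. Neither sum overlapped between groups, as deposited or with TMM or upper-quartile scaling. In each, the lowest shHBO1 library lay close above the highest shCTRL library. The sum of HOXC4 to HOXC6 alone, genes that share long runs of bases, depended on the scaling. It did not overlap as deposited or with TMM scaling. With upper-quartile scaling it overlapped, at 348 in shHBO1 replicate 3 and 351 in shCTRL replicate 2. HOXA had 3077, 2906 and 3258 in shHBO1 and 2867, 3252 and 3005 in shCTRL. HOXD had 2165, 2044 and 2854 in shHBO1 and 2207, 1921 and 2501 in shCTRL. Both of these sums overlapped, and so did the sums over paralog groups 1 to 3, 4 to 8 and 9 to 13. The sums were not tested.

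**Figure D3:**
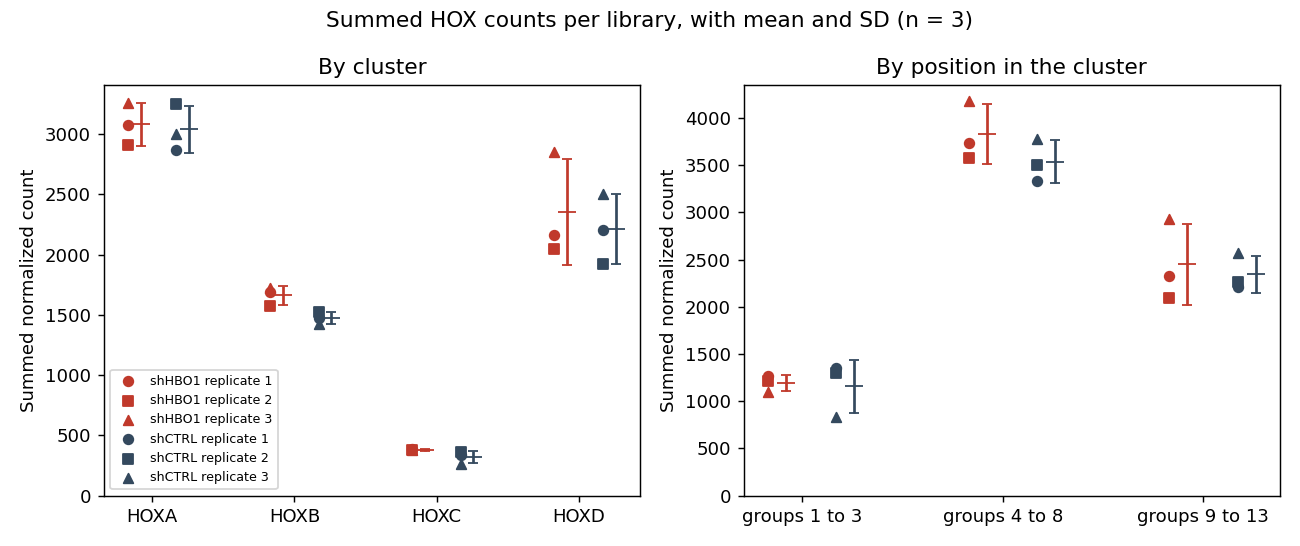
Summed normalized count of the HOX genes of each cluster (left) and of each range of paralog groups (right), 1 point per library with mean and SD (n = 3), shHBO1 left of shCTRL. The HOXB sums lie at 1571 to 1722 in shHBO1 and 1424 to 1522 in shCTRL, and replicate 3 (triangles) is lowest in groups 1 to 3 and highest in groups 4 to 8 and 9 to 13 in both groups of libraries.

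The sums by position also differed between replicate numbers within each group, a description that was not tested by position. Groups 1 to 3 summed to 1265, 1219 and 1098 in shHBO1 replicates 1, 2 and 3, and to 1348, 1297 and 838 in shCTRL. Groups 9 to 13 summed to 2324, 2099 and 2929 in shHBO1 and to 2209, 2258 and 2572 in shCTRL. The anterior sum was thus lowest, and the posterior sum highest, in number 3 of each group. The median log2 difference of number 3 from number 1 was −0.43 over the 7 tested genes of groups 1 to 3, 0.27 over the 12 of groups 4 to 8 and 0.29 over the 11 of groups 9 to 13, against 0.0031 over all genes. Members went both ways: 5 of the 7 anterior genes were lower in number 3, with HOXD1 at 0.29 and HOXD3 at 0.0067, and 8 of the 11 posterior genes were higher, with HOXA9 at −0.47, HOXA13 at −0.28 and HOXD10 at −0.029. In a limma fit with group and replicate number, 4 of 30 HOX genes (13.3%) passed an adjusted p of 0.05 between numbers. This was close to the 9.68% of all genes that did. The test was a single F test of any difference between numbers 1, 2 and 3. Its adjusted p does not belong to the difference of number 3 from number 1 alone. HOXA3 fell in number 3, by 0.92 on the log2 scale against number 1 (F test adjusted p = 0.0237). HOXB9 (0.83, F test adjusted p = 0.0404), HOXA11 (0.79, F test adjusted p = 0.0396) and HOXD4 (0.49, F test adjusted p = 0.0354) rose. The count was 0 when each gene was represented by its most abundant transcript alone. What the number stands for is not given in the labels.

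**Figure D4:**
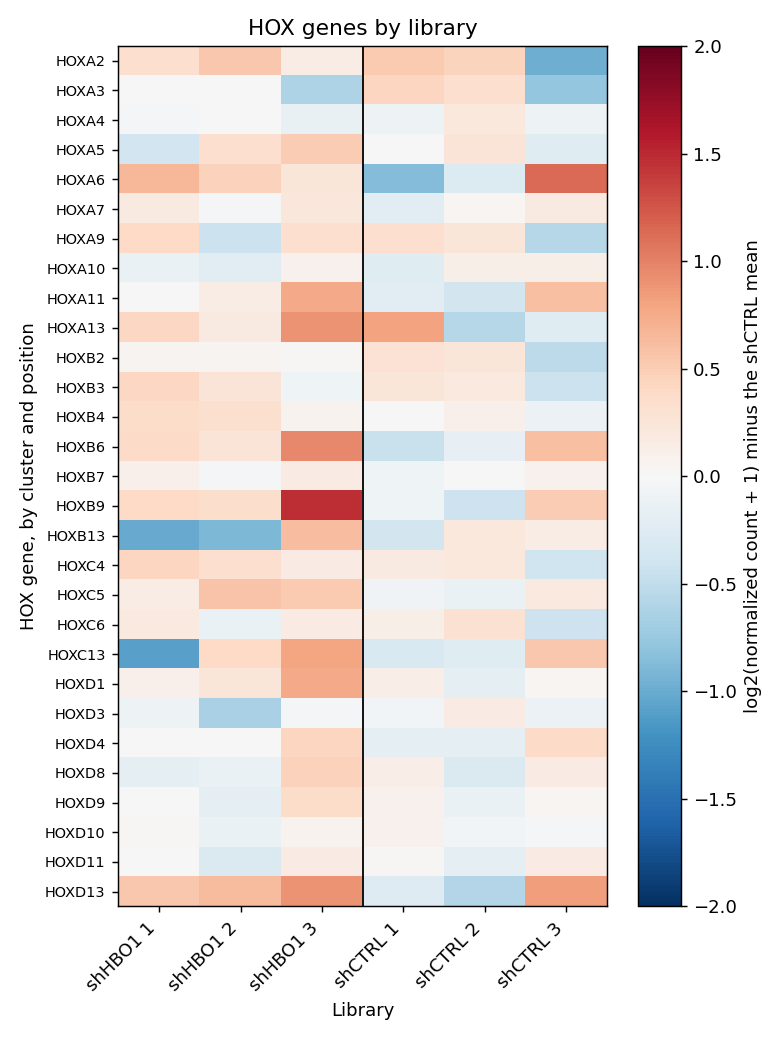
Log2(normalized count + 1) of 29 of the 30 tested HOX genes in each library minus the mean of its 3 shCTRL libraries, with shHBO1 libraries left of shCTRL libraries and genes ordered by cluster and position. HOXA3 is lowest and HOXB9 highest in number 3 of each group, at 210 and 231 normalized counts in shHBO1 and 188 and 116 in shCTRL.

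With the replicate number as a block, which removes this shared difference, 0 HOX genes passed in limma, against 0.125% of all genes (19). At an unadjusted p under 0.05 the blocked limma fit had 2 of 30 (6.67%), HOXB9 and HOXD13, against 11.3% of all genes. HOXB9 had a blocked adjusted p of 0.202 and HOXD13 of 0.363 (limma), and HOXB9 was higher in shHBO1 in each of the 3 pairs, as was HOXD13. Blocked edgeR called 0 HOX genes (0.125% of all genes), with 2 at an unadjusted p under 0.05 against 11.2% of all genes. Blocked DESeq2 called 0 of 25 (1.03% of all genes), with 1 of 30 at an unadjusted p under 0.05 against 6.93%.

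The deposited table splits 8 HOX genes into several RefSeq transcripts, and the split moved more than the gene sums. HOXA10 had NM_018951 at 398, 271 and 674 normalized counts in shHBO1 and 795, 595 and 706 in shCTRL. Its non-coding transcript NR_037939 had 459, 528 and 327 in shHBO1 and 0, 426 and 316 in shCTRL. In shCTRL replicate 1 every HOXA10 read was thus listed under 1 transcript. HOXB3 had NM_002146 at 158, 130 and 216 in shHBO1 and 228, 153 and 62.9 in shCTRL, while NM_001330322 had 114, 45.8 and 0 in shHBO1 and 50.8, 9.37 and 23.1 in shCTRL. The transcripts of a gene traded places from library to library within each group. HOXC4 NM_014620 and HOXC6 NM_153693 were at 0 in all 6 libraries. The sources used here do not say how the authors shared reads between transcripts, and values of single transcripts share that limit. NM_018951 alone, the most abundant HOXA10 transcript, gave a log2 fold change of −0.73 (limma adjusted p = 1.00), against −0.092 for the gene sum.

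**Figure D5:**
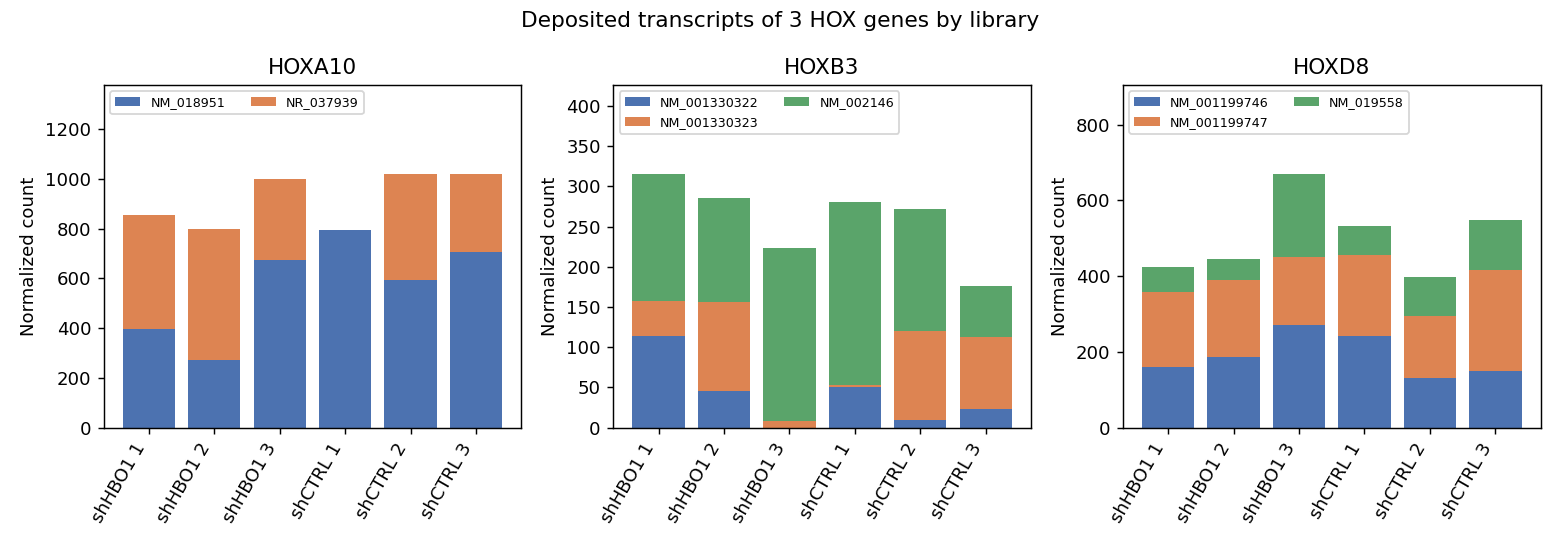
Normalized count of each deposited transcript of HOXA10, HOXB3 and HOXD8, stacked per library, shHBO1 left of shCTRL. The split between transcripts varies within each group, with HOXA10 NR_037939 at 0 in shCTRL replicate 1 and at 459, 528 and 327 in the shHBO1 libraries.

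Non-coding RNAs of the clusters had estimates above 0 in 7 of the 7 tested, with a median log2 fold change of 0.31, and 0 passed in limma with or without the block. HOTAIRM1, transcribed at the anterior end of the HOXA cluster, had 270, 294 and 255 normalized counts in shHBO1 and 243, 202 and 193 in shCTRL. The groups did not overlap (log2 fold change 0.36, SE 0.15, limma adjusted p = 1.00), as was so for 8.93% of all genes tested. Strand was not given, so reads of overlapping antisense partners cannot be told apart. HAGLR, at the HOXD1 end of its cluster, was the most abundant, at 1442 ± 46.9 in shHBO1 and 1368 ± 143 in shCTRL. HOXD-AS2 averaged 54.8 ± 6.10 and 44.2 ± 8.14, a log2 fold change of 0.31 (SE 0.24). HOTAIR, the RNA of the silent stretch of HOXC, had 0 reads in all libraries.

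HOX proteins bind DNA together with TALE homeodomain cofactors, of which 8 of 9 were tested. Of these 0 passed, 2 estimates were above 0 and 6 below, and the median was −0.076. PBX2, the most abundant, averaged 2288 ± 36.3 in shHBO1 and 2411 ± 140 in shCTRL. PBX4 had 43.9, 37.7 and 39.6 in shHBO1 and 56.9, 72.1 and 50.3 in shCTRL, and MEIS3 had 14, 0 and 10.6 in shHBO1 and 22.3, 36.5 and 24.1 in shCTRL. Neither overlapped between groups, as was so for 8.93% of all genes tested. Their log2 fold changes were −0.54 (SE 0.24) and −2.33 (SE 0.97, limma adjusted p = 1.00). MEIS3 is a gene of low counts, and its size rests on shHBO1 replicate 2: without that library the log2 fold change was −1.09.

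Of 12 genes of the MLL and menin complexes 0 passed and 8 estimates were above 0 (median 0.055). KMT2A, the methyltransferase itself, averaged 2971 ± 301 in shHBO1 and 2486 ± 379 in shCTRL (log2 fold change 0.26, SE 0.12). Its partner RBBP5 averaged 1018 ± 148 and 850 ± 69.6 (0.25, SE 0.13), without overlap, as was so for 8.93% of all genes tested. WDR5, the most abundant, averaged 8786 ± 593 and 8365 ± 1256. Of 15 Polycomb genes 0 passed and 10 estimates were above 0 (median 0.030). CBX2, the histone-reading subunit of a Polycomb repressive complex, had 1460, 1358 and 1575 in shHBO1 and 1053, 1049 and 1187 in shCTRL. BMI1, another subunit, had 2039, 2156 and 2170 in shHBO1 and 1553, 1729 and 1906 in shCTRL. Neither gene overlapped between groups, as was so for 8.93% of all genes tested. The log2 fold change was 0.42 for CBX2 (SE 0.096, limma adjusted p = 1.00) and 0.30 for BMI1 (SE 0.094, limma adjusted p = 1.00). With the block the limma adjusted p of CBX2 was 0.0894, and CBX2 passed in blocked DESeq2 alone.

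Activators and retinoid genes act upstream of HOX genes. Of 11 tested CDX, retinoid and CTCF genes 0 passed and 7 estimates were above 0, with a median of 0.049. CYP26B1, which degrades retinoic acid, averaged 14.2 ± 6.95 in shHBO1 and 9.28 ± 10.1 in shCTRL, and DHRS3, which limits its synthesis, averaged 88.2 ± 37.1 and 74.5 ± 47.4. The carrier CRABP2 averaged 2640 ± 410 and 2530 ± 288. Geminin (GMNN), which can bind HOX proteins, averaged 3270 ± 244 in shHBO1 and 3392 ± 462 in shCTRL.

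Of 17 tested genes that flank the clusters 4 estimates were above 0 and 13 below, with a median of −0.016, and 0 passed in limma. SKAP1, next to HOXB1, averaged 19.4 ± 1.11 in shHBO1 and 25.3 ± 4.45 in shCTRL, without overlap, as was so for 8.93% of all genes tested. COPZ1 averaged 7172 ± 313 and 7739 ± 456, and HNRNPA1, near the HOXC cluster and the most abundant of them, averaged 43710 ± 1525 and 43946 ± 1466. Of 15 other homeobox genes 0 passed and 11 estimates were above 0 (median 0.11). IRX3 had 67.3, 73.3 and 118 in shHBO1 and 53.8, 61.8 and 59.8 in shCTRL, without overlap (log2 fold change 0.51, SE 0.26, limma adjusted p = 1.00). Of all genes tested, 8.93% had no overlap. ZEB1, a repressor of epithelial genes, averaged 85.7 ± 4.12 and 60.5 ± 24.1 (0.56, SE 0.29).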

How the data were processed

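RNA-seq of 3 shHBO1 and 3 shCTRL libraries was used. The authors deposited 1 table of normalized signal, read counts scaled by 1 factor per library, for 58215 RefSeq transcript accessions. The submitters' processing notes list Bowtie 1.2.1.1, SAMtools, DESeq2 and the build hg19, without their roles. Dividing by each library's step gave whole reads for 100% of values (tolerance 0.01 read). Names came from RefSeq GRCh38.p14 (57191 accessions) and GENCODE 29 (671). Another 353 accessions, with 0.0840 to 0.0901% of the reads, could not be named and were not used. Transcripts were summed per gene. A read listed under several transcripts or near-identical genes could count more than once or move between genes.

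Differences were tested with limma-trend (limma 3.58.1, R 4.3.3). The 15184 genes whose mean reached 10 entered as log2(normalized count + 1), p-values were adjusted by Benjamini-Hochberg, and the threshold was 0.05. Each log2 fold change is shHBO1 minus shCTRL, and this scale understates differences of genes with low counts. For KAT7 a two-sided exact permutation test was added (p = 0.1, the smallest that 3 against 3 allows). Recovered reads were tested with edgeR 4.0.16 and DESeq2 1.42.0 as alternatives. The procedure was tested on simulated data. Transcript lengths came from GENCODE 29, for 47 of the 49 HOX transcripts, and were weighted by reads.

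Same-numbered libraries deviated together from their group means (correlations of 0.32, 0.20 and 0.48 across genes for numbers 1, 2 and 3, all over 0.1), so the numbers were taken to pair the libraries and used as a block in an alternative fit. Deviations from a group mean cancel out within the group, so the 3 correlations are not independent. Libraries of unlike number were not compared, so the correlations cannot show that each number is a pair. No label gives a day or batch for a number.

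Library values are given for the 3 most abundant members of each cluster, the 4 with the smallest p, and any past the threshold. For other lists, the 2 smallest p and the most abundant gene are named; others are named after their values were seen. The members and lists were chosen with earlier results of these data known. Some genes and a sequence are not reported here by name, though counts, medians and sums include the genes.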

Additional observations from a re-analysis of the deposited data

How the results depend on the processing

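The HOX count past the threshold stayed at 0 in each of the 20 alternatives to scaling, pseudocount, filter, count test, block, transcript choice or libraries left out. With the replicate number as a block the count was 0, and the block changed no HOX call. In this balanced design the block leaves each limma estimate as it was, so the HOX median of 0.14 could not change. The same blocked settings called 1 cofactor or regulator in DESeq2 (CBX2). Without the pair numbered 3 the HOX median was 0.015, with HOXC6 at −0.18, HOXD8 at −0.083, HOXD9 at −0.065 and HNRNPA1 at 0.038. Leaving out 1 library at a time gave a HOX median of 0.049 to 0.20. The sign turned in at least 1 such fit for HOXA3 (−0.58 to 0.021), HOXB3 (−0.020 to 0.34), HOXC6 (−0.13 to 0.23), HOXD8 (−0.17 to 0.16), HOXD9 (−0.088 to 0.19), CRABP2 (−0.064 to 0.15), DHRS3 (−0.29 to 0.88), GMNN (−0.15 to 0.051), HNRNPA1 (−0.036 to 0.018), PAX8 (−0.21 to 0.059), PHC2 (−0.072 to 0.19) and WDR5 (−0.0025 to 0.20). With the most abundant transcript per gene, HOXA10 was at −0.73, HOXD8 at −0.12, GMNN at 0.067 and SKAP1 at 0.19, and 0 HOX genes differed between replicate numbers; with no low filter 2 did. Quantile normalization put HNRNPA1 at 0.023. The cause was not tested. Of 318 estimates of the 15 HOX genes given by library and of HOXD-AS2, 306 kept their direction and 12 turned. The 306 include the blocked limma estimates, which could not turn. Without the block, each tested HOX gene with a mean under 75.4 normalized counts had an interval reaching a 2-fold change. This cut is the lowest mean among the 20 genes whose interval lay within a 2-fold change. HOXA11, HOXB9 and HOXD13, with means of 172, 116 and 82.9, also had intervals reaching it. The part of depth was not tested.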
